A study of Mus musculus with 6 samples.

Results

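The genes described here are 43 collagen genes and 13 other genes of meningeal fibroblasts, 56 genes of the 14969 that could be tested in the prefrontal cortex. They were chosen by name: every protein-coding collagen chain (a symbol of Col, a number, a and a number) and Slc47a1, Ogn, Aebp1, Dcn, Lum, Igf2, Slc6a13, Slc13a4, Fmod, Bgn, Islr, Mgp and Serping1, each with a mean normalized count of at least 10 over the 6 samples. The lowest of them, Col6a6, had a mean of 19.9, and 1 further collagen of the table, Col10a1, had a mean of 3.19 and was left out. All samples were prefrontal cortex of C57BL/6J mice aged 28 days after birth, 3 labelled Hetero with the genotype Cyfip2 mutant, and 3 wild type (WT). The labels give no other allele, no treatment, no sex, no batch and no description of the mutation, and nothing in them says that each sample is a different animal, so the spread behind each p-value may in part be technical.

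Collagens are secreted or membrane-bound proteins built from chains that wind into a triple helix. Fibrillar collagens form the fibres of connective tissue, fibril-associated collagens bind to those fibres, type IV collagen forms the sheet of basement membranes, and type VI collagen forms beaded filaments beside them. In the brain, fibrous collagen is made mainly by fibroblasts of the meninges, the membranes that cover the cortex, and of the sheaths of larger vessels, while the capillary basement membrane is rich in type IV collagen. Meningeal fibroblasts also make small proteoglycans that bind collagen fibrils, growth factors, and membrane transporters of the barrier between blood and cerebrospinal fluid. In a dissected piece of cortex these cells are a minority, and in such bulk samples fewer cells of a type and less RNA per cell cannot be told apart.

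The scaled libraries had column totals of 29879143 to 30735443, and the spacing of the low values put the depth at about 26500000, 29400000 and 43900000 assigned reads in Hetero samples 1 to 3 and 35700000, 25600000 and 25500000 in WT samples 1 to 3. Cyfip2, which encodes a subunit of the WAVE complex of actin assembly, read 20959, 21237 and 18285 normalized counts in Hetero and 31933, 30496 and 27503 in WT. Every Hetero library was below every WT library, with a log2 change of -0.57 ± 0.07 (SE) and an adjusted p of 0.31 by limma. The two-sided exact permutation p was 0.1, which is as low as this design can go. All 8 cortical neuron markers were tested, with a summed level of 307660 to 325835 in Hetero and 323843 to 333961 in WT. Of these 8, 3 had an unadjusted p under 0.05 and 4 had groups without overlap, 2 in each direction, with Rbfox3 at a log2 change of 0.14 and Camk2a at -0.11. Of 6 astrocyte markers 2 were higher and 4 lower in Hetero, with log2 changes from -0.18 to 0.13. An unadjusted p under 0.05 stood at 2 of the 6 (33.3%), the glutamate transporters Slc1a3 (-0.18) and Slc1a2 (-0.14), both lower in Hetero. Over all genes, limma with Benjamini-Hochberg adjustment called 0 at an adjusted p under 0.05 (0.0% of 14969), and 573 (3.83%) had an unadjusted p under 0.05.

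None of the 56 genes passed the adjusted threshold in the comparison of Hetero with WT, which asks whether the Cyfip2 genotype goes with another level of these genes. Their smallest adjusted p was 1. At an unadjusted p under 0.05 stood 6 of them (10.7%), against 3.83% of all tested genes. Those with a higher level in Hetero were Col26a1, Col6a2, Col11a1, Col8a2 and Slc47a1, which makes 5 of the 56, against 1.66% of all genes. Col6a3 was the 1 gene with a lower level in Hetero, against 2.17% of all genes. These are descriptions of the samples, since no gene was called after adjustment. The 56 genes were also chosen with earlier results of these data known, so their shares beside those of all genes are no test.

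Of these 6 genes, Col26a1, which had the smallest p, and Slc47a1 have no entry in the RefSeq promoter table. The upstream sequences of the other 4 follow, to show what lies before their start sites. Each holds the 250 bases before the RefSeq start, 5′ to 3′ on the gene's strand in GRCm38.p6. Capitals mark matches to CCAAT (or ATTGG on the other strand), GGGCGG (or CCGCCC) and TATAAA (or TTTATA). The windows lie at chr3:114030290-114030539 (plus strand) for Col11a1, chr10:76623631-76623880 (minus) for Col6a2, chr1:90843972-90844221 (minus) for Col6a3 and chr4:126286544-126286793 (plus) for Col8a2.
Col11a1: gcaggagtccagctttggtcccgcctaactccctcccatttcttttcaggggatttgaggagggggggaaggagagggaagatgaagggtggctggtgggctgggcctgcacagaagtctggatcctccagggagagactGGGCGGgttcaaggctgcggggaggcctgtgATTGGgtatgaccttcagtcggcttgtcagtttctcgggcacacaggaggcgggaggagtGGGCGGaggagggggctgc
Col6a2: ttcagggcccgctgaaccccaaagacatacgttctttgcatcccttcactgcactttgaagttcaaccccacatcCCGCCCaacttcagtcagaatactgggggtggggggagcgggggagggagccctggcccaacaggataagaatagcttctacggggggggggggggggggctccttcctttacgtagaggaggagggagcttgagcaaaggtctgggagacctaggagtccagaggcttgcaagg
Col6a3: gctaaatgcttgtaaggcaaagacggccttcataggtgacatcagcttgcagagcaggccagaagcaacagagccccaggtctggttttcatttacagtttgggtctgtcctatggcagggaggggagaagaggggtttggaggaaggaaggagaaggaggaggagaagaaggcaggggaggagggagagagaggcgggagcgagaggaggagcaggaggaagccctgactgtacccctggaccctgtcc
Col8a2: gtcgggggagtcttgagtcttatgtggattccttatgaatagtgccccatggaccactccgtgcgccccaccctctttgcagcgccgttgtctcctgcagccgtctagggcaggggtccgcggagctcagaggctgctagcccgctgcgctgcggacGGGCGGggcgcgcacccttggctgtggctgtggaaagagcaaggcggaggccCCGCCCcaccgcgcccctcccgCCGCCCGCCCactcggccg

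The Col8a2 window held 4 GC boxes, 2 of which overlap, and was 70% G and C. Col11a1 had 2 GC boxes and 1 CCAAT on the other strand, Col6a2 had 1 GC box, and the Col6a3 window held none of these motifs. None of the 4 held TATAAA. Entries existed for 42 of the 56 genes, with 50 windows in all. A GC box stood in 54.0% of these windows, against 32.7% of the 32851 windows in the table, CCAAT in 32.0% against 33.8%, and TATAAA in 10% against 12.4%. The 32851 windows were not limited to the tested genes, so the sets compared are unlike, and whether this bears on the GC box shares was not tested. The transcripts of the 56 genes were also richer in G and C, with a median of 54.8% against 51.1% over all tested genes. A match is a description of letters and not a site in use.

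Per kilobase of the longest coding transcript, the 5 most abundant of the 56 genes were Mgp, Igf2, Col6a1, Col4a2 and Col4a1. Mgp, a protein that inhibits calcification, averaged 1038 normalized counts per kb over the 6 libraries, and Igf2, an imprinted growth factor, averaged 540.5 per kb. The chains of beaded filaments and of the capillary basement membrane followed, with Col6a1 at 518.9, Col4a2 at 433.4 and Col4a1 at 368.4 per kb. The proteoglycan Dcn had 196.8, the type I chain Col1a2 192.2 and Col25a1, a transmembrane collagen of neurons, 180.8 per kb. At the low end Col6a5, Col4a4 and Col6a6 had 2.61, 2.42 and 2.27 per kb. The order depends on the length used: with the mean length of the coding transcripts, which includes partial ones and was replaced after the values were seen, Igf2 had 1090 and Col4a1 877.7 per kb. It is also not known whether the deposited scaling already corrects for transcript length, and if it does, the values per kb would be too low for long genes. The order by normalized count alone began with Col4a2 (mean 2795), Igf2 (2552), Col4a1 (2437) and Col6a1 (2127).

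**Figure D1:**
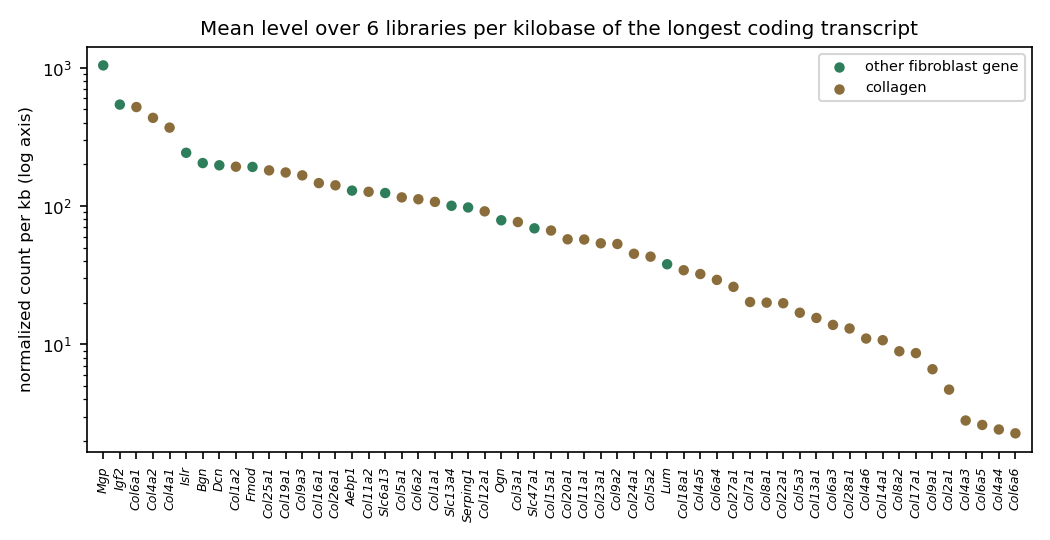
Mean normalized count per kilobase of the longest coding transcript over all 6 libraries (log axis) for each of the 56 genes in order of level. Green points are the 13 fibroblast genes that are not collagens and brown points are collagens, and the levels run from 1038 for Mgp down to 2.27 for Col6a6.

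The 56 genes varied more between libraries than most genes. The median fold between the highest and the lowest of the 6 libraries was 1.72 for them and 1.25 over all tested genes. Their median standard error of the log2 change was 0.203, against 0.097 over all genes. A change of 1.5-fold or more in either direction was outside the 95% interval for 26 of the 56 genes and for 12105 of all 14969.

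More of the 56 genes had a higher than a lower fitted level in Hetero, by small amounts. Higher were 43 (76.8%) and lower 13, with a median log2 change of 0.115, while over all genes 7354 (49.1%) were higher and the median was -0.002. The mean level of the 56, each gene's own log2 mean subtracted, was 0.08, 0.07 and 0.04 in Hetero 1 to 3. In WT 1 to 3 it was 0.02, -0.11 and -0.09. Above their own mean were 30, 34 and 32 of the 56 in Hetero 1 to 3 and 33, 13 and 23 in WT 1 to 3. Among the collagens 31 of 43 were higher, with a median of 0.090, and among the other genes 12 of 13, with a median of 0.162. The groups did not overlap for 6 genes that were higher in Hetero, where 4.4% of all genes showed this, and for 1 that was lower, where 4.32% did. The 6 were Col26a1, Col6a2, Col11a1, Slc47a1, Col14a1 and Col4a5, and the 1 was Col6a3; Col14a1 and Col4a5 are named after their values were seen. The genes are not independent of each other and were chosen with earlier results of these data known, so the count of directions is given without a test.

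**Figure D2:**
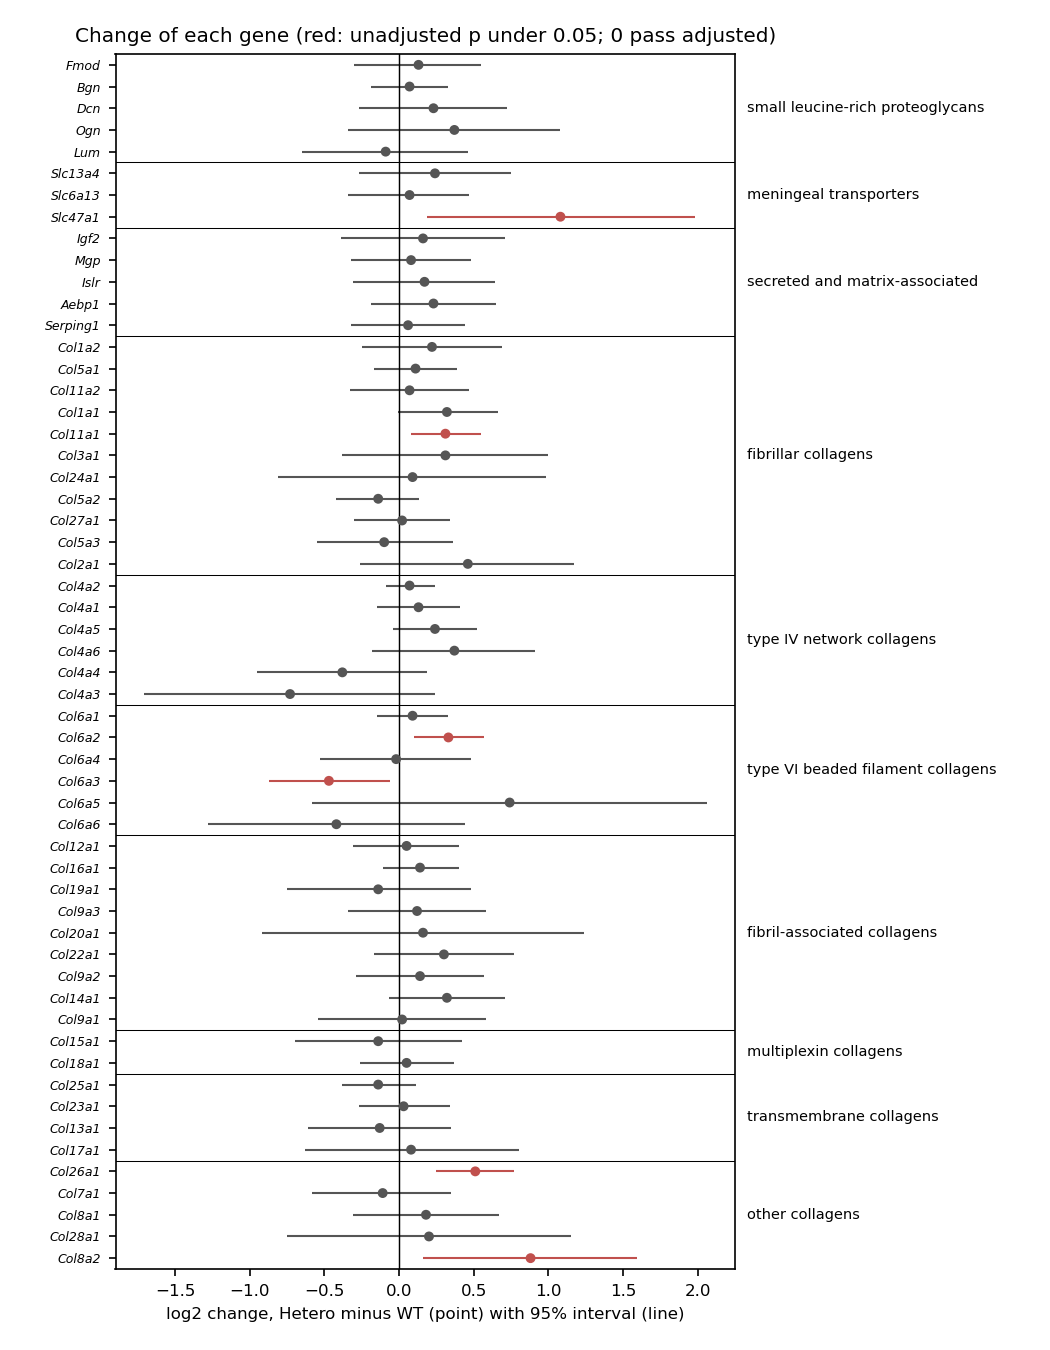
Log2 change of Hetero minus WT with its 95% interval from limma for each of the 56 genes by class, in red where the unadjusted p is under 0.05. Most intervals cross 0, and the points lie mainly to the right of it, with a median of 0.115.

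Most of the 13 fibroblast genes that are not collagens shared a pattern from library to library, and its high libraries came from both groups. All 13 were above their own mean in Hetero 2 and 12 of 13 in WT 1, against 2 in Hetero 1, 8 in Hetero 3, 1 in WT 2 and 2 in WT 3. Over all tested genes this share lay between 50.3% and 51.4% in every library. The level of the 13 genes, averaged over the genes after subtracting each gene's own mean on the log2 scale, was -0.08, 0.32 and 0.08 in Hetero 1 to 3 and 0.29, -0.21 and -0.40 in WT 1 to 3. The level of WT 1 thus stood beside that of Hetero 2, and the other libraries of both groups stood lower. Without WT 1 the median log2 change of the 13 genes was 0.303, with all 13 higher. Without WT 3 it was 0.014, with 7 of the 13 higher. The highest library was Hetero 2 for 6 of the genes and WT 1 for 4, and the lowest was WT 3 for 8. Slc47a1 was highest in Hetero 1 and above its mean in every Hetero library. Igf2 and Serping1 were highest in Hetero 3 and lowest in Hetero 1, and Slc6a13 was also lowest in Hetero 1.

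**Figure D3:**
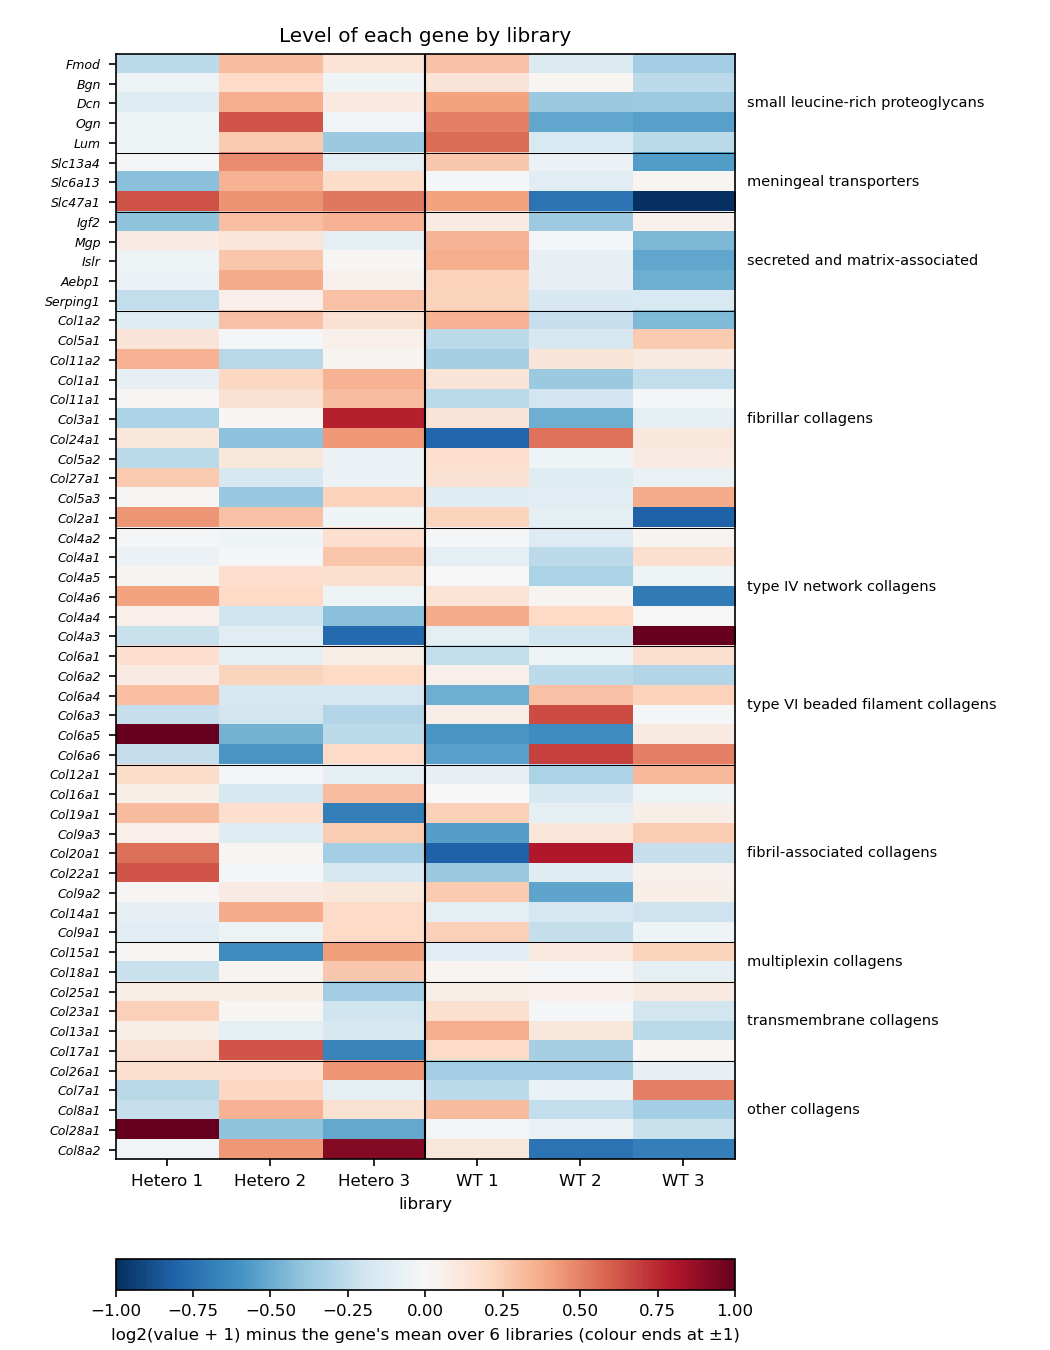
Level of each of the 56 genes in each library (columns: Hetero 1 to 3, then WT 1 to 3) relative to that gene's average (log2 scale), in colour. Most of the 13 fibroblast genes show bands of like colour in Hetero 2 and WT 1 and in WT 3, while 28, 21 and 24 of the 43 collagens are above their own mean in Hetero 1 to 3 and 21, 12 and 21 in WT 1 to 3.

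Small leucine-rich proteoglycans bind collagen fibrils and limit their width. Decorin (Dcn) read 309.9, 434.9 and 362.2 normalized counts in Hetero and 444.7, 261.0 and 262.8 in WT. Its mean was 369.0 ± 62.8 (SD, n = 3) in Hetero and 322.8 ± 105.6 (SD, n = 3) in WT, and WT 1 was the highest library of all. Osteoglycin (Ogn) read 187.6, 297.9 and 189.2 in Hetero and 272.2, 133.9 and 132.4 in WT, with a log2 change of 0.37 ± 0.31 (SE). Hetero 2 and WT 1 were again the high libraries, and the groups overlapped. The change was 0.72 without WT 1, 0.16 without Hetero 2, 0.21 without WT 2 and 0.20 without WT 3. Fibromodulin (Fmod) read 491.2, 726.9 and 649.1 in Hetero and 719.0, 533.4 and 464.5 in WT. Biglycan (Bgn) read 476.4, 562.2 and 477.4 in Hetero and 537.8, 500.1 and 410.4 in WT. Lumican (Lum), the neighbour of Dcn on chromosome 10 at a gap of 46985 bases, read 88.2, 108.8 and 69.9 in Hetero and 133.7, 81.4 and 74.9 in WT. Lum was the 1 gene of the 13 with a lower fitted level in Hetero (log2 change -0.09 ± 0.25, SE). Fitted levels were higher in Hetero for 4 of the 5, with a median log2 change of 0.126, and none had an unadjusted p under 0.05.

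Of the 3 transporters of the meningeal barrier, the exporter Slc47a1 had the largest fitted difference. Slc47a1 (MATE1, ENSMUSG00000010122, chromosome 11, 61343401 to 61378345 in GRCm38, minus strand) exports organic cations in exchange for protons. It read 254.6, 222.6 and 235.9 in Hetero and 215.2, 97.3 and 66.0 in WT. Every Hetero library was above every WT library, but WT 1 lay only just under the lowest Hetero library. The mean was 237.7 ± 16.1 (SD, n = 3) in Hetero and 126.2 ± 78.6 (SD, n = 3) in WT, and the log2 change was 1.08 ± 0.38 (SE) (unadjusted p = 0.024, adjusted p = 1, limma). Without WT 1 it was 1.55 (adjusted p = 0.15, limma), and without WT 3 it was 0.71. Slc13a4, a sodium sulfate cotransporter, read 331.5, 465.2 and 312.3 in Hetero and 405.0, 320.5 and 227.1 in WT. Slc6a13 (GAT2), which takes up GABA and taurine, read 203.8, 347.6 and 308.7 in Hetero and 271.1, 253.6 and 276.8 in WT. The groups overlapped for both genes.

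The secreted fibroblast genes had fitted levels a little higher in Hetero, none at an unadjusted p under 0.05. Igf2 read 1892, 3072 and 3189 in Hetero and 2637, 1953 and 2570 in WT, so the groups overlapped and the lowest library of all was Hetero 1. Its log2 change was 0.16 ± 0.23 (SE), and it was 0.40 without Hetero 1, 0.054 without Hetero 2, 0.027 without Hetero 3 and 0.024 without WT 2. Mgp read 668.4, 686.7 and 595.1 in Hetero and 801.6, 626.3 and 463.6 in WT, with the highest and the lowest library both in WT. Aebp1, a secreted protein that binds collagen, read 464.9, 628.7 and 498.5 in Hetero and 568.5, 460.5 and 346.0 in WT. Islr (meflin), a marker of mesenchymal stromal cells, read 510.6, 643.5 and 533.9 in Hetero and 676.5, 500.2 and 367.1 in WT. Aebp1 and Islr shared the pattern of the proteoglycans, with Hetero 2 and WT 1 the high libraries and WT 3 the low one. Serping1, the inhibitor of the complement protease C1, read 143.0, 176.8 and 208.9 in Hetero and 199.4, 152.3 and 153.7 in WT.

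Other cell types of the vessels, membranes and ventricles were read beside these genes from marker lists. The level of 23 other meningeal fibroblast markers was -0.09, 0.07 and 0.06 in Hetero and 0.22, -0.14 and -0.11 in WT. WT 1 was the highest library. Their summed level was 9059 to 10263 in Hetero and 9597 to 10216 in WT. These sums mostly reflect a few high genes and say little of the low ones. In Hetero 1, Cemip read 1653, Gjb6 1608, Vtn 1365 and Slc22a8 1023, while Foxc1 read 114.4 and Tbx18 112.1, all named after their values were seen. The level of 7 border macrophage markers was 0.03, 0.31 and -0.27 in Hetero and 0.26, -0.10 and -0.23 in WT, with sums of 491.8 to 706.7 and 468.7 to 655.8. Of the 23 fibroblast markers 13 were higher and 10 lower in Hetero, and of the macrophage markers 5 and 2, with a median log2 change of 0.027. Pf4 stood at 0.29 and Ms4a7 at 0.38 (unadjusted p = 0.31 and 0.34, limma). Ms4a7 read 35.8 in Hetero 1 and 12.7 to 18.9 in the other libraries. The 2 lower ones, named after their values were seen, were Cd163 at -0.27 and Cbr2 at -0.15. Of 11 mural cell markers 7 were higher and 4 lower, with Cspg4, also a gene of glial progenitors, at -0.27 (unadjusted p = 0.016, limma) and Rgs5 at 0.11. The part of these cell types in the differences was not tested. Of the 9 choroid plexus markers 5 passed the minimum, and the defining marker Ttr, which that tissue makes in abundance, named after its values were seen, read 27.2, 11.3 and 42.6 in Hetero and 4.32, 26.5 and 14.6 in WT. The summed level of all 9 choroid plexus markers, with the 4 below the minimum included, was 6128 to 7345 in Hetero and 6242 to 6963 in WT. Nearly all of this sum came from Enpp2, which oligodendrocytes also make, at 5994 to 7230 in Hetero and 6139 to 6871 in WT.

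**Figure D4:**
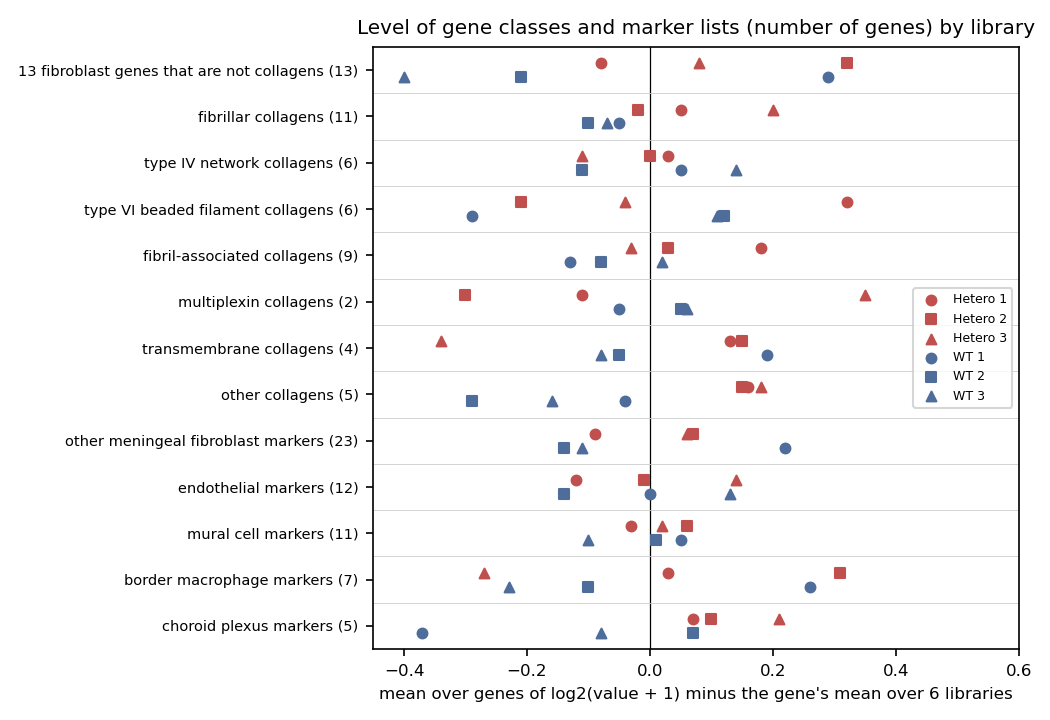
Level of each gene class and marker list in each library, averaged over its genes after each gene's own mean of log2(value + 1) was subtracted; red symbols are Hetero 1 to 3 and blue symbols WT 1 to 3, and the number of genes is in brackets. In the top row Hetero 2 (0.32) and WT 1 (0.29) lie together at the right, and WT 3 (-0.40) at the far left.

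The fibrillar collagens, the fibre-forming chains, had 9 of 11 members with a higher fitted level in Hetero, with a median log2 change of 0.107. Col11a1 (ENSMUSG00000027966, chromosome 3, 114030540 to 114220718, plus strand), whose chain helps to start fibrils, was the 1 with an unadjusted p under 0.05. It read 437.6, 484.1 and 538.9 in Hetero and 361.6, 380.9 and 429.9 in WT, so the highest WT library was just below the lowest Hetero library. The mean was 486.9 ± 50.7 (SD, n = 3) in Hetero and 390.8 ± 35.2 (SD, n = 3) in WT, and the log2 change was 0.31 ± 0.11 (SE) (unadjusted p = 0.015, adjusted p = 1, limma). Col1a2, a chain of type I collagen, read 929.3, 1235 and 1120 in Hetero and 1282, 860.1 and 741.5 in WT. WT 1 was the highest library, as for 4 of the 13 fibroblast genes that are not collagens, and the groups overlapped. Col5a1, which regulates fibril formation, read 1050, 950.6 and 997.9 in Hetero and 805.7, 860.8 and 1149 in WT. Col1a1, the partner of Col1a2, is named after its values were seen: 590.6, 724.6 and 797.9 in Hetero and 684.3, 482.2 and 526.2 in WT, with a log2 change of 0.32 (unadjusted p = 0.058, limma). Col3a1, the type III chain of extensible tissue such as vessel walls, was likewise chosen after its values were seen and read 325.5, 410.5 and 701.0 in Hetero and 445.6, 289.9 and 380.1 in WT. Its highest library, Hetero 3, also had the largest estimated depth, and whether depth bears on this level was not tested.

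Type IV collagen, the network of basement membranes, had 4 of 6 chains with a higher fitted level in Hetero, none at an unadjusted p under 0.05. Col4a1 read 2318, 2378 and 2934 in Hetero and 2275, 2014 and 2705 in WT, and Col4a2 read 2744, 2709 and 3149 in Hetero and 2761, 2555 and 2855 in WT. Both were highest in the third library of each group, and Col4a2 had the smallest fold between its highest and lowest library of all 56 genes, 1.23. The log2 changes were 0.13 ± 0.12 (SE) for Col4a1 and 0.07 ± 0.07 (SE) for Col4a2, with a 95% interval from -0.09 to 0.24 for Col4a2. In the same libraries the level of 12 endothelial markers was highest, at -0.12, -0.01 and 0.14 in Hetero and 0.00, -0.14 and 0.13 in WT, and so were the 5 blood markers, at -0.41, -0.36 and 0.97 in Hetero and -0.04, -0.95 and 0.79 in WT. The sums were 11475 to 13406 in Hetero and 11595 to 13572 in WT for the endothelial markers, and 21029 to 52503 in Hetero and 14808 to 46065 in WT for the blood markers, and their part in the type IV levels was not tested. Between the groups, Cdh5 had a log2 change of 0.16, Slco1a4 of -0.08, Hbb-bt of 0.16 and Hbb-bs of 0.14, none at an unadjusted p under 0.05.

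The 6 type IV genes lie as 3 head-to-head pairs that share a start region, and each pair includes chains that are assembled together. Col4a1 and Col4a2 start 21 bases apart on chromosome 8 and overlap by 22 bases, so whether reads there were counted by strand, which is not given in the sources used here, could touch both, although the overlap is a small stretch of both genes. Their log2 ratio, Col4a1 over Col4a2, was -0.24, -0.19 and -0.10 in Hetero and -0.28, -0.34 and -0.08 in WT. Col4a4 and Col4a3, chains of the kidney membrane, start 72 bases apart on chromosome 1, and Col4a6 and Col4a5 start 1309 bases apart on chromosome X. Col4a5, named after its values were seen, read 213.6, 235.7 and 233.0 in Hetero and 209.0, 166.9 and 203.2 in WT, with a log2 change of 0.24 (unadjusted p = 0.081, limma).

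Among the 6 type VI chains 3 had a higher and 3 a lower fitted level in Hetero, and 1 of each stood at an unadjusted p under 0.05. Col6a2 (ENSMUSG00000020241, chromosome 10, 76595762 to 76623630, minus strand) read 544.3, 599.2 and 593.1 in Hetero and 532.6, 429.1 and 421.6 in WT, so every Hetero library was above every WT library. The mean was 578.9 ± 30.1 (SD, n = 3) in Hetero and 461.1 ± 62.0 (SD, n = 3) in WT, and the log2 change was 0.33 ± 0.11 (SE) (unadjusted p = 0.011, adjusted p = 1, limma). Col6a3 (ENSMUSG00000048126, chromosome 1, 90765923 to 90843971, minus strand) went the other way, with 115.4, 119.8 and 111.2 in Hetero and 142.3, 213.8 and 134.0 in WT. Its log2 change was -0.47 ± 0.18 (SE) (unadjusted p = 0.029, adjusted p = 1, limma), and WT 2 was far above the other libraries. Without WT 2 the log2 change was -0.26. Both chains join Col6a1 in the same filament. Col6a1 lies 85162 bases from Col6a2 on the same strand and read 2379, 1987 and 2202 in Hetero and 1777, 2048 and 2370 in WT, with overlapping groups.

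The fibril-associated collagens had 8 of 9 members with a higher fitted level in Hetero, none with an unadjusted p under 0.05 and a median log2 change of 0.136. Col12a1, which links fibrils in tendon and other tissues, read 1184, 1033 and 968.5 in Hetero and 985.4, 833.6 and 1311 in WT. Col16a1 read 790.4, 677.7 and 941.0 in Hetero and 755.6, 675.9 and 730.1 in WT. The groups overlapped for both genes, and the 9 log2 changes ran from -0.14 to 0.32. Of the multiplexins, collagens of the outer basement membrane, Col15a1 read 336.8, 215.6 and 447.9 in Hetero and 309.6, 359.6 and 391.1 in WT. Col18a1, whose C-terminal fragment is endostatin, read 163.4, 194.3 and 230.8 in Hetero and 193.9, 190.0 and 178.2 in WT.

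The transmembrane collagens, which sit in the cell membrane, had log2 changes from -0.14 to 0.08, with 2 of 4 higher in Hetero. Col25a1 read 1267, 1264 and 944.1 in Hetero and 1263, 1244 and 1285 in WT, so Hetero 3 alone stood apart. Col23a1 read 355.8, 303.8 and 262.7 in Hetero and 336.7, 296.8 and 266.0 in WT, with overlapping groups.

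Of the remaining 5 collagens 4 had a higher fitted level in Hetero, 2 of them at an unadjusted p under 0.05. Col26a1 (ENSMUSG00000004415, chromosome 5, 136741759 to 136883209, minus strand), a secreted collagen-domain protein, had the smallest p of the 56 genes. It read 428.9, 432.5 and 522.6 in Hetero and 302.7, 303.1 and 363.4 in WT, and every Hetero library was above every WT library. The mean was 461.3 ± 53.1 (SD, n = 3) in Hetero and 323.1 ± 34.9 (SD, n = 3) in WT, with a log2 change of 0.51 ± 0.12 (SE) (unadjusted p = 0.0014, adjusted p = 1, limma). Col8a2 (ENSMUSG00000056174, chromosome 4, 126286793 to 126314330, plus strand), a short-chain collagen that forms networks, read 34.7, 47.9 and 67.9 in Hetero and 38.3, 20.8 and 21.7 in WT. Its groups overlapped in that WT 1 lay above Hetero 1, and the log2 change was 0.88 ± 0.32 (SE) (unadjusted p = 0.021, adjusted p = 1, limma). Col7a1, the collagen of anchoring fibrils in skin, read 150.4, 212.1 and 170.7 in Hetero and 152.3, 174.6 and 258.9 in WT.

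**Figure D5:**
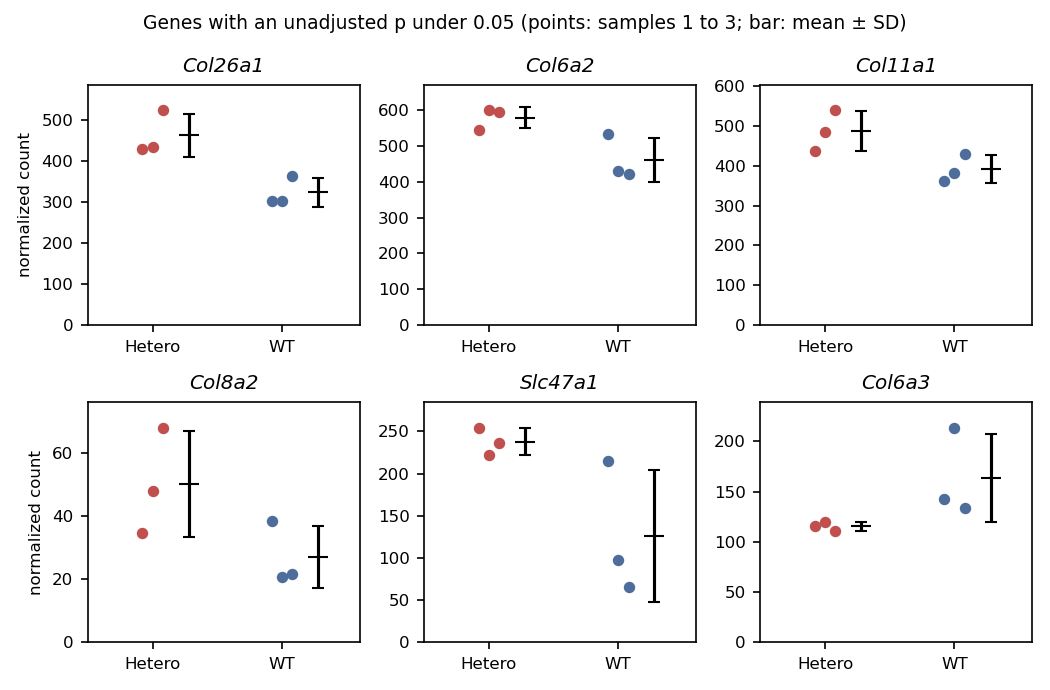
Normalized counts (axis from 0) of the 6 genes with an unadjusted p under 0.05, each point 1 library, with the mean and SD beside the points, Hetero left of WT. Slc47a1 has its WT points from 66.0 to 215.2, and Col6a3 is the panel with Hetero below WT.

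Leaving out a library moved the number of these genes at an unadjusted p under 0.05 between 2 and 12. It was 8, 7 and 2 without Hetero 1, 2 and 3, and 12, 3 and 6 without WT 1, 2 and 3. The share of all tested genes at this p moved as well. It was 3.76%, 3.16% and 5.22% without Hetero 1, 2 and 3, and 5.16%, 2.98% and 2.82% without WT 1, 2 and 3. Col26a1 and Col6a2 were at this p in each of the 6 cases. Slc47a1 was not at it without Hetero 1, without Hetero 3 or without WT 2. Col8a2 dropped out without Hetero 3, WT 2 or WT 3, Col11a1 without Hetero 3 or WT 1, and Col6a3 without Hetero 1, Hetero 3 or WT 2. Other genes came in as libraries were left out: Col1a1, Col1a2, Ogn, Dcn, Islr, Aebp1 and Col6a6 without WT 1, Igf2, Col1a1, Slc6a13 and Col14a1 without Hetero 1, Col16a1 without Hetero 2 and Col5a1 without WT 3. Of these Col6a6 was lower in Hetero and the others higher. The names outside the rule (Col1a1, Col6a6, Col14a1) were chosen after their values were seen.

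Genes of the collagen pathway beside these 56 were read from lists for comparison, none with an adjusted p under 0.05. Of 30 genes of collagen synthesis and processing 19 were higher and 11 lower in Hetero, with a median log2 change of 0.066. Only 1 was at an unadjusted p under 0.05 (3.33%, against 3.83% of all tested genes). That gene was Pcolce2, an enhancer of the protease that trims procollagen, at 66.2, 65.5 and 68.1 in Hetero and 105.4, 132.5 and 115.0 in WT. Its log2 change was -0.81 ± 0.15 (SE) (adjusted p = 0.88, limma), and the groups did not overlap. Adamts2, a protease that trims the amino end of procollagen, had a log2 change of 0.25. Of 9 collagen receptors 5 were higher and 4 lower, with a median log2 change of 0.008. The 2 with the smallest p were Itga11, an integrin of fibroblasts, at 0.47 and Ddr2 at 0.19 (unadjusted p = 0.088 and 0.13, limma). Of 9 collagen-degrading proteases and inhibitors 2 were higher and 7 lower, among them Timp2 at -0.09 and Mmp16 at -0.24. Of 16 genes of TGF-beta signalling, a pathway that raises collagen in fibroblasts, 8 were higher and 8 lower, with Ccn2 at -0.14 and Tgfb3 at 0.16.

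Of 23 other genes of the basement membrane and matrix 14 were higher and 9 lower in Hetero, and 3 were at an unadjusted p under 0.05, all higher. The thrombospondin Thbs1 read 135.0, 159.7 and 133.5 in Hetero and 118.3, 71.0 and 88.4 in WT, with a log2 change of 0.65 (unadjusted p = 0.0081, limma). Thbs2 read 337.3, 329.8 and 359.1 in Hetero and 267.0, 267.7 and 301.0 in WT, with a log2 change of 0.30 (unadjusted p = 0.013, limma). Lama4, a laminin chain of vessel walls named after its values were seen, had a log2 change of 0.29 (unadjusted p = 0.046, limma). Among the other fibroblast markers Dpp4 had a log2 change of -0.65 and Foxc2, a transcription factor of the meninges, one of 0.79 (unadjusted p = 0.0026 and 0.041, limma). Kl, a choroid plexus marker that other cells also make, averaged 48.5 ± 4.03 (SD, n = 3) in Hetero and 28.0 ± 3.48 (SD, n = 3) in WT, without overlap, with a log2 change of 0.78 (unadjusted p = 0.0044, limma), and Sostdc1, another marker of that list, had one of -0.54 (unadjusted p = 0.16, limma).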

How the data were processed

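Prefrontal cortex mRNA was sequenced in 3 Hetero and 3 WT samples with TruSeq Stranded mRNA kits (per the labels' protocols), and groups were taken from the sample labels. The authors deposited 1 table of normalized counts, used here as a signal (not whole, not negative, scaled to like totals). Per the submitters' processing notes, GRCm38, DESeq2 1.19.11, R 3.6.0 and Salmon 0.11.2 were used, with no role given for each. The sources used here state neither the scaling nor whether counting used strand. Low values were whole multiples of 1 step in only 15.5% to 28.1% of cases (within 0.02 of a step), so whole reads were not recovered and no count test was run.

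Of 17889 identifiers 17875 matched GENCODE M21, which gives symbols, coordinates (1-based, GRCm38) and lengths (the longest coding transcript for levels per kb, the mean of coding transcripts for the length trend). Values were analysed as log2(value + 1), which understates changes of low genes, for the 14969 genes whose mean was 10 or more, with limma 3.58.1 in R 4.3.3 (intensity trend, robust), two-sided, Benjamini-Hochberg adjusted over all of them at 0.05. The script was tested on simulated data. Promoter windows are from RefSeq. Genes named with values in every sample are the 13 non-collagens, the 2 highest collagens of each class and those at an unadjusted p under 0.05; of the other lists, the 2 with the smallest p. The 56 genes and all lists were chosen with earlier results of these data known. Alternatives were pseudocounts, filters, TMM, limma without trend and robust fitting, a replicate block, removal of GC content and length trends, and leaving out each sample.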

Additional observations from a re-analysis of the deposited data

How the results depend on the processing

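The depth of about 25500000 to 43900000 reads limits low genes most, and 3 samples a group leave a standard error of 0.203 (log2) for the median gene of the 56. Under pseudocounts of 0.5 and 8, both other filters, TMM, limma without trend and robust fitting and removal of GC content and length trends, no named gene changed direction, no gene was called, and 5 to 8 of the 56 were at an unadjusted p under 0.05. In these fits 3.73% to 4.66% of all tested genes were at that p. The samples share only replicate numbers: deviations of same-numbered libraries correlated at -0.005, 0.004 and 0.227. Hetero 1 correlated best with WT 2 (0.07) and Hetero 2 with WT 1 (0.181), and only Hetero 3 did so with its own number. With the replicate block 2 genes were called, Cyfip2 (-0.57, adjusted p = 0.0016, limma) among them, and none of the 56.

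Leaving out 1 library at a time gave 0 to 1 called genes and 2 to 12 of the 56 at an unadjusted p under 0.05. Of all tested genes 2.82% to 5.22% were at that p. The median log2 change of the 56 lay between 0.093 and 0.171. This median was 0.055 to 0.142 for collagens and 0.014 to 0.303 for the 13 other genes. The log2 change crossed 0 for Col12a1 (-0.10 to 0.22), Col23a1 (-0.079 to 0.14), Col7a1 (-0.27 to 0.11), Bgn (-0.042 to 0.15), Col15a1 (-0.38 to 0.14), Slc6a13 (-0.090 to 0.29), Col18a1 (-0.071 to 0.18), Col25a1 (-0.21 to 0.0019), Lum (-0.25 to 0.16), Serping1 (-0.072 to 0.20), Col6a1 (-0.013 to 0.19), Fmod (-0.012 to 0.30), Islr (-0.055 to 0.38) and Mgp (-0.13 to 0.27). Among named genes outside the 6 at an unadjusted p under 0.05 that kept their direction, the change ran from 0.024 to 0.40 for Igf2, 0.16 to 0.72 for Ogn, 0.096 to 0.48 for Dcn, 0.050 to 0.44 for Col1a2, 0.040 to 0.40 for Aebp1, 0.014 to 0.43 for Slc13a4, 0.024 to 0.26 for Col16a1, 0.0061 to 0.26 for Col5a1, 0.021 to 0.24 for Col4a1 and 0.0029 to 0.11 for Col4a2. For the 6 it ran from 0.42 to 0.60 for Col26a1, 0.27 to 0.44 for Col6a2, 0.24 to 0.39 for Col11a1, 0.64 to 1.15 for Col8a2, 0.71 to 1.55 for Slc47a1 and -0.59 to -0.26 for Col6a3. The cause was not tested.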

Other observations

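In some collagens a single library stood far from the rest, in genes chosen after their values were seen. Col6a5 read 71.0, 13.6 and 15.8 normalized counts in Hetero and 12.5, 12.1 and 20.4 in WT. Col28a1 read 116.5, 37.7 and 34.7 in Hetero and 49.5, 47.7 and 42.8 in WT, so the high library was Hetero 1 in both genes. Col4a3 read 17.9, 19.5 and 11.9 in Hetero and 19.7, 18.2 and 56.8 in WT, where WT 3 was the high library. Its head-to-head neighbour Col4a4 had 24.9, 20.9 and 17.8 in Hetero and 31.5, 27.8 and 24.1 in WT, with WT 3 in the range of the others. Col19a1, a collagen that interneurons also make, read 905.2, 818.1 and 450.6 in Hetero and 858.8, 680.5 and 756.5 in WT, with Hetero 3 the low library, as for Col25a1.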
